A study of Mus musculus with 9 samples.

Results

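The genes described here carry the interleukin 4 (IL-4) signal into a macrophage and restrain it. They are the receptor chain Il4ra (Mm.233802), the transcription factor Stat6 (Mm.121721), the induced factors Irf4 (Mm.4677), Pparg (Mm.3020) and Egr2 (Mm.290421), and the feedback inhibitors Socs1 (Mm.130), Socs2 (Mm.4132), Socs3 (Mm.3468) and Cish (Mm.4592). They were chosen for these roles as 9 UniGene cluster numbers, each standing for a set of transcript sequences assigned to 1 gene. The array table held 8 of the 9 among its 17810 clusters, each as a single probe set, and Socs2 was not analysed here. The table lists cluster numbers without gene names. The pairing of number and name was set when the genes were chosen and was not checked against an annotation of the array.

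IL-4 binds Il4ra, which pairs with a second chain, and the Janus kinases attached to the receptor phosphorylate Stat6. Stat6 then enters the nucleus and switches on genes of the alternatively activated macrophage, among them further transcription factors such as Irf4, Pparg and Egr2. Members of the suppressor of cytokine signalling (SOCS) family are induced by STAT proteins and act back on cytokine receptors. Socs1 and Socs3 inhibit Janus kinases directly, Socs3 chiefly at receptors of the IL-6 type, and Cish is a classical target of Stat5 that also answers to other STAT-activating cytokines.

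Marrow from tibias and femurs of C57BL/6 mice was cultured with macrophage colony-stimulating factor (M-CSF, 30 ng/ml), which drives macrophage differentiation. On day 4 the medium was exchanged for that of the group, and RNA came from the cells after 3 more days. The cmB16F1 group received medium that B16F1 mouse melanoma cells had conditioned. The dexa+IL4 group received fresh medium with IL-4 (10 ng/ml) and the glucocorticoid dexamethasone (5e-07 M). The cmB16F1+dexa+IL4 group, called the combination below, received conditioned medium together with both agents at these doses. Each group had 3 arrays. Both groups given IL-4 also received dexamethasone, and neither IL-4 alone nor plain medium was analysed here. The contributions of IL-4 and dexamethasone therefore cannot be told apart. Dexa+IL4 and cmB16F1 differ in conditioned medium as well, so between them the agents and the medium cannot be told apart either. The labels do not say whether the arrays of a group came from separate mice or cultures, so the p-values measure the spread between these samples, which may be technical. In such bulk RNA, fewer cells of a type and less RNA per cell cannot be told apart. Other cluster numbers have no names here, so macrophage markers and the other genes of the pathway were not analysed here.

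The start regions of the 3 SOCS genes whose levels set the groups apart are shown first, from RefSeq on GRCm38.p6, 5′ to 3′ on the strand of the gene. Each runs from 250 bases before the start site to 30 after it. Capitals mark matches to TTCNNNGAA, the letters of many STAT binding sites, or to GAAANNGAAA, the letters of many interferon regulatory factor (IRF) sites. Socs1 lies on the minus strand (chr16:10785507-10785786), Cish on the plus strand (chr9:107296409-107296688) and Socs3 on the minus strand (chr11:117969337-117969616).
Socs1: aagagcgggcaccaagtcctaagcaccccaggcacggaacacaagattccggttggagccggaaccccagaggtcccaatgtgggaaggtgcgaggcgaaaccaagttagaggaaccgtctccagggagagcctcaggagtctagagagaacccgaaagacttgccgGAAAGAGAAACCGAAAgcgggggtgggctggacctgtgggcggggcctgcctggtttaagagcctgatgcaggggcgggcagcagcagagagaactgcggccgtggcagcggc
Cish: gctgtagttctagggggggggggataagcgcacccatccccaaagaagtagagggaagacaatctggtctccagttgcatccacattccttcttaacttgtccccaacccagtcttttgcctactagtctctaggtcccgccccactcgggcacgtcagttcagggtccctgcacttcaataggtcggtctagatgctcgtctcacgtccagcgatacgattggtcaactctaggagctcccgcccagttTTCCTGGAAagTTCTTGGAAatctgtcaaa
Socs3: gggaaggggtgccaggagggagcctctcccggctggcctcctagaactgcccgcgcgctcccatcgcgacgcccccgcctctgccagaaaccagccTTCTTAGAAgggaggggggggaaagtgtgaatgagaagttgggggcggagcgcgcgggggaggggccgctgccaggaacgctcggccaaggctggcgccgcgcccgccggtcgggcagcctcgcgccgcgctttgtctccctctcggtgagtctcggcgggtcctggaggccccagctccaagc

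Cish held 2 matches to TTCNNNGAA, TTCCTGGAA at bases 1 to 9 and TTCTTGGAA at bases 12 to 20 of the transcript. Socs3 held 1, TTCTTAGAA, from -154 to -146. Socs1 held 2 overlapping matches to GAAANNGAAA, GAAAGAGAAA from -83 to -74 and GAAACCGAAA from -77 to -68. Windows of 300 bases (250 before and 50 after the start) were searched on both strands for all 8 genes, including 3 start sites of Pparg and 5 of Egr2. TTCNNNGAA occurred in 2 of the 8 genes and in 8.3% of all 32851 such windows, and GAAANNGAAA in 1 of the 8 and in 3.44% of windows. TTCNNNNGAA, the wider spacing that Stat6 prefers, occurred in 0 of the 8 genes and in 6.95% of windows. GNACANNNTGTNC, the letters of a glucocorticoid receptor site, occurred in 0 of the 8 and in 0.475%. The counts are by gene, where a match in any window of the gene sufficed, whereas the percentages are by window. A match is a string of letters and no evidence of binding, and sites outside these windows were not searched.

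Values below are deposited log2 probe-set values, on which 1 unit is a doubling. The array medians lay between 7.20 and 7.25. The bacterial poly-A control sets, which match no mouse RNA, ranged from 6.09 to 7.00 and mark the low end of the scale. Group means of the 8 genes lay above 7.00 except that of Socs1 in cmB16F1. Groups were compared with limma, fitted to all 9 arrays and 17829 features, with Benjamini-Hochberg adjustment over all features and a threshold of 0.05. The means of the hybridization controls, spiked into each sample, were 10.02 to 10.28 in cmB16F1, 10.03 to 10.22 in dexa+IL4 and 10.31 to 10.55 in the combination. Scaling arrays to these controls was therefore run as an alternative, and its values are given where they move a result by over 1.5 times or turn its sign. The 3′ minus 5′ difference of the beta-actin control sets, a measure of RNA integrity, was 0.96 ± 0.21 (SD, n = 3) in cmB16F1, 0.99 ± 0.12 in dexa+IL4 and 1.15 ± 0.22 in the combination. That of Gapdh was 0.42 ± 0.20, 0.30 ± 0.08 and 0.45 ± 0.19. Exact two-sided permutation p-values for these differences ran from 0.3 to 1, where 0.1 is the smallest that 3 against 3 arrays allow.

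Cish and Socs1 were lowest in cmB16F1, higher in dexa+IL4 and highest in the combination. Socs3 was highest in cmB16F1, lower in the combination and lowest in dexa+IL4. Irf4 was higher in the combination than in either other group, while Pparg was higher in dexa+IL4 than in either group that received conditioned medium. The plot of all 8 genes by group shows each array.

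**Figure D1:**
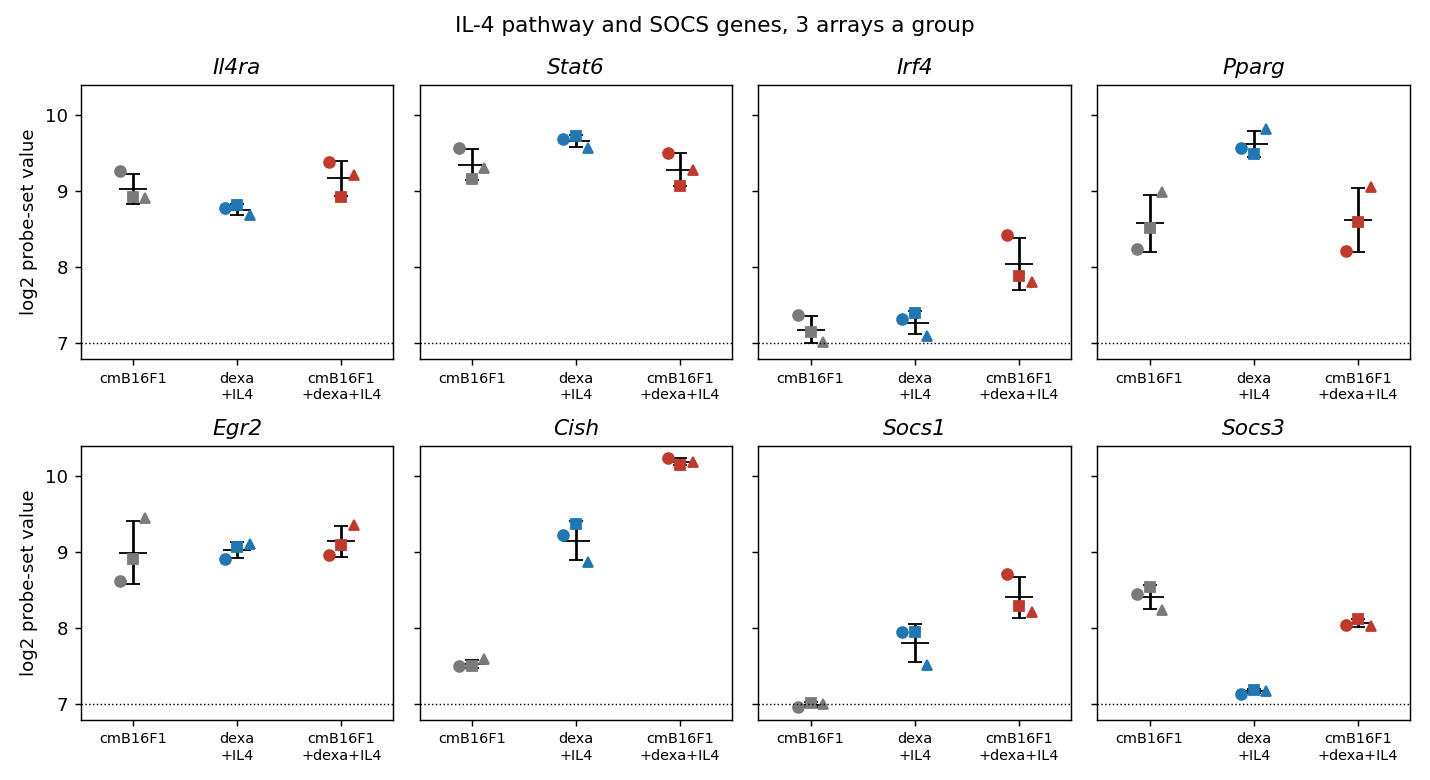
Log2 probe-set values (vertical axis) of the 8 genes in the 3 groups (horizontal axis). Each point is 1 array, with circles, squares and triangles for replicates 1, 2 and 3, the bar and whiskers are the mean ± SD of 3 arrays, and the dotted line is the highest bacterial poly-A control, 7.00. Cish rises from 7.53 in cmB16F1 through 9.15 in dexa+IL4 to 10.19 in the combination, whereas Socs3 is lowest in dexa+IL4 at 7.17.

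Among the feedback inhibitors, Cish was higher in both groups given IL-4 than in cmB16F1. Its arrays read 7.50, 7.50 and 7.59 in cmB16F1, 9.23, 9.36 and 8.87 in dexa+IL4, and 10.24, 10.15 and 10.19 in the combination. The 3 groups did not overlap, and the gap from the highest dexa+IL4 array to the lowest combination array was 0.79. In dexa+IL4, Cish exceeded its cmB16F1 level 3.08-fold (log2 difference 1.62, SE 0.107, limma adjusted p = 4.16e-06). In the combination it was 6.34-fold higher than in cmB16F1 (2.66, SE 0.107, limma adjusted p = 2.104e-07), a change larger than that of 99.9% of clusters. The 2 differences share the cmB16F1 arrays. The test of whether they differ is the combination against dexa+IL4, where Cish was 2.06-fold higher (1.04, 95% confidence interval 0.80 to 1.28, limma adjusted p = 1.842e-04).

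Socs1, a direct inhibitor of Janus kinases, had the same order of groups. In cmB16F1 it read 6.96, 7.02 and 7.00, at the level of the highest bacterial control. It read 7.95, 7.95 and 7.51 in dexa+IL4 and 8.71, 8.29 and 8.21 in the combination. No array of one group reached into another. Since the cmB16F1 mean lies at the low end of the scale, the folds against it may be understated. Raising each cmB16F1 array to the highest bacterial control of that array, where the gene read lower, left both folds unchanged. In dexa+IL4, Socs1 was 1.75-fold higher than in cmB16F1 (0.81, SE 0.139, 95% confidence interval 0.50 to 1.12, limma adjusted p = 0.001968). In the combination it was 2.66-fold higher than in cmB16F1 (1.41, SE 0.139, 95% confidence interval 1.1 to 1.72, limma adjusted p = 9.201e-05). Between the groups given IL-4 it was 1.52-fold higher in the combination (0.60, 95% confidence interval 0.29 to 0.91, limma adjusted p = 0.0147). Hybridization control scaling lowered this last difference to 0.34 (limma adjusted p = 0.03626), and its adjusted p ran from 0.004856 to 0.04591 over 18 alternatives. The lowest of these came from a block for the replicate number, although the numbers were not taken as pairs in this comparison.

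Socs3, which inhibits signalling by IL-6-type receptors, went the other way. It read 8.44, 8.54 and 8.24 in cmB16F1, 7.14, 7.19 and 7.18 in dexa+IL4, and 8.04, 8.12 and 8.03 in the combination. The dexa+IL4 arrays lay close together and just above the bacterial controls, so the folds against them may be understated. Socs3 was 2.36-fold lower in dexa+IL4 than in cmB16F1 (-1.24, SE 0.0695, limma adjusted p = 1.41e-06). In the combination it fell less, by 1.27-fold from cmB16F1 (-0.35, SE 0.0695, limma adjusted p = 0.007786). The combination lay 1.86-fold above dexa+IL4 (0.90, 95% confidence interval 0.74 to 1.05, limma adjusted p = 4.666e-05). Hybridization control scaling gave -0.56 in place of -0.35.

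The plot of gene pairs sets these patterns side by side. The groups form separate clusters in it, so no correlation over the 9 arrays is given. Within dexa+IL4, replicate 3 was the lowest array for both Cish (8.87) and Socs1 (7.51). Within the combination, replicate 1 was the highest for both (10.24 and 8.71). The genes did not match in cmB16F1, where Cish was highest on replicate 3 (7.59) and Socs1 on replicate 2 (7.02). Nor did their lowest arrays in the combination, replicate 2 for Cish (10.15) and replicate 3 for Socs1 (8.21). The Cish arrays of the combination spanned only 0.09.

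**Figure D2:**
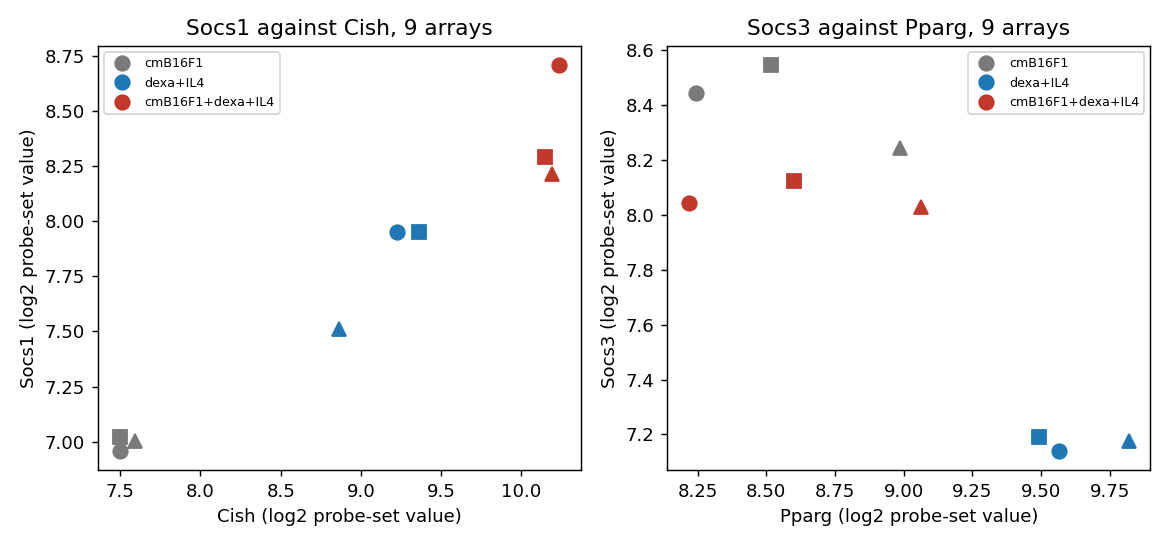
Socs1 against Cish (left) and Socs3 against Pparg (right), log2 probe-set values, 1 point for each of the 9 arrays, with colours for the groups and circles, squares and triangles for replicates 1, 2 and 3. On the left the groups follow each other from cmB16F1 to the combination on both axes. On the right dexa+IL4 stands apart with Pparg from 9.49 to 9.82 and Socs3 from 7.14 to 7.19.

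Of the transcription factors downstream of Stat6, Irf4, which takes part in alternative activation of macrophages, was raised in the combination. Its arrays read 8.43, 7.88 and 7.81 there. They read 7.37, 7.16 and 7.02 in cmB16F1 and 7.33, 7.39 and 7.10 in dexa+IL4. All 3 combination arrays lay above the 6 others, while the other two groups overlapped. Both lower groups lay little above the bacterial controls, so that folds against them may be understated. Irf4 was 1.81-fold higher in the combination than in cmB16F1 (0.86, SE 0.155, limma adjusted p = 0.004211) and 1.7-fold higher than in dexa+IL4 (0.77, SE 0.155, limma adjusted p = 0.007387). Scaling to the hybridization controls gave 0.51 for the latter. Dexa+IL4 minus cmB16F1 gave 0.09 (95% confidence interval -0.26 to 0.44, limma adjusted p = 0.7245).

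Pparg, a lipid-sensing nuclear receptor, was raised in dexa+IL4. It read 9.57, 9.49 and 9.82 in dexa+IL4, 8.24, 8.52 and 8.99 in cmB16F1, and 8.22, 8.60 and 9.06 in the combination. The dexa+IL4 arrays lay above the 6 others, and the groups with conditioned medium spanned nearly the same range. From cmB16F1 to dexa+IL4, Pparg rose 2.06-fold (1.04, SE 0.221, limma adjusted p = 0.006726). In the combination it was 2-fold lower than in dexa+IL4 (-0.997, SE 0.221, limma adjusted p = 0.01176). This call was lost without dexa+IL4 replicate 3 (-0.90, limma adjusted p = 0.0516, the highest of the 18 alternatives). The lowest limma adjusted p, 1.951e-15, came from hybridization control scaling (-1.25). That scaling also took the limma adjusted p of Cish in the combination against cmB16F1 from 2.104e-07 to 1.134e-59. The difference of Cish there shrank from 2.66 to 2.45, so smaller p-values under that scaling are not read as stronger support. The combination minus cmB16F1 gave 0.05 for Pparg (95% confidence interval -0.45 to 0.54, limma adjusted p = 0.9357), and hybridization control scaling turned this sign.

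Egr2, a zinc finger factor induced early by IL-4, passed the test in none of the 3 comparisons. It read 8.62, 8.91 and 9.45 in cmB16F1, 8.91, 9.06 and 9.11 in dexa+IL4, and 8.97, 9.09 and 9.36 in the combination. The 3 groups overlapped, and cmB16F1 spanned 0.83. The differences were 0.03 for dexa+IL4 and 0.15 for the combination against cmB16F1, and 0.11 between the groups given IL-4. Their 95% confidence intervals reached from -0.37 to 0.44, from -0.26 to 0.55 and from -0.29 to 0.52. Changes within these limits are not excluded with 3 arrays a group. The limma adjusted p-values were 0.9189, 0.6896 and 0.7377, and hybridization control scaling turned the sign of the last 2 differences and gave 0.08 in place of 0.03 for the first.

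The receptor chain Il4ra passed the test between the groups given IL-4, and Stat6 passed in no comparison. Il4ra read 9.26, 8.93 and 8.92 in cmB16F1, 8.78, 8.82 and 8.68 in dexa+IL4, and 9.39, 8.93 and 9.21 in the combination. The dexa+IL4 arrays were the 3 lowest. Il4ra was 1.33-fold higher in the combination than in dexa+IL4 (0.42, SE 0.122, limma adjusted p = 0.04196). Over 18 alternatives the adjusted p ran from 0.01184 to 0.3204 and the call held in 10. The lowest came from a block for the replicate number, although the numbers were not taken as pairs in this comparison. The call was lost with hybridization control scaling (0.16) and median centring (0.39), and on leaving out replicate 2 of cmB16F1, any of the 3 dexa+IL4 arrays, or replicate 1 or 3 of the combination (0.31 to 0.44). Against cmB16F1, Il4ra differed by -0.28 in dexa+IL4 (95% confidence interval -0.55 to -0.0024, limma adjusted p = 0.1344) and by 0.14 in the combination (-0.13 to 0.41, limma adjusted p = 0.5445), a sign that hybridization control scaling turned (-0.072). Leaving out 1 array gave -0.33 to -0.16 for the first, the latter without cmB16F1 replicate 1, and 0.034 to 0.26 for the second, from without combination replicate 1 to without combination replicate 2.

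Stat6, the transcription factor that IL-4 activates, read 9.57, 9.17 and 9.31 in cmB16F1, 9.69, 9.73 and 9.57 in dexa+IL4, and 9.50, 9.08 and 9.28 in the combination. The dexa+IL4 arrays were the 3 highest, the lowest of them by 0.0045 over the highest cmB16F1 array. No difference passed the test. Stat6 in dexa+IL4 differed by 0.31 from cmB16F1 (95% confidence interval 0.04 to 0.58, limma adjusted p = 0.09017), and the combination differed by -0.38 from dexa+IL4 (-0.65 to -0.10, limma adjusted p = 0.05945). Of 18 alternatives, 3 and 8 took these past the threshold (limma adjusted p 0.01956 to 0.2727 and 3.996e-04 to 0.1806). Both counts include a block for the replicate number, although the numbers were not taken as pairs in these comparisons. Scaling to the hybridization controls gave -0.63 for the combination against dexa+IL4. Between the combination and cmB16F1 the difference was -0.06 (-0.33 to 0.21, limma adjusted p = 0.8128), and hybridization control scaling gave -0.28 (limma adjusted p = 0.1707, not past the threshold). These are transcript levels, and phosphorylation of Stat6 was not measured.

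**Figure D3:**
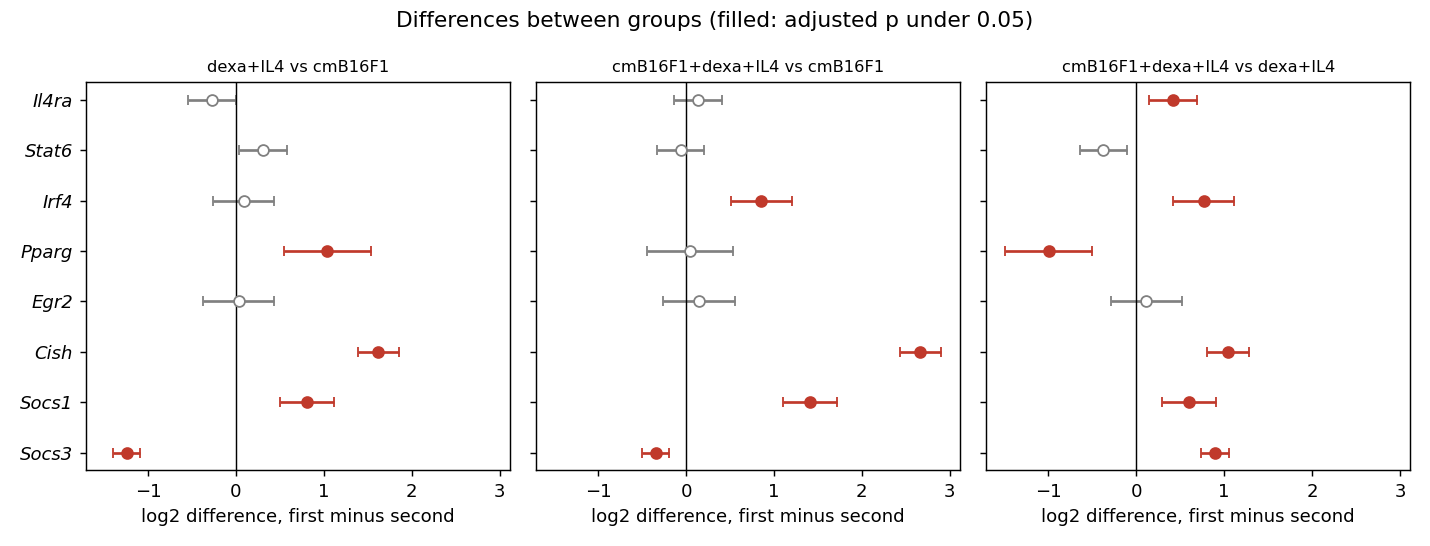
Log2 differences (horizontal axis) of the 8 genes (vertical axis) in the 3 comparisons, first group minus second, with limma 95% confidence intervals. Filled red points had an adjusted p under 0.05. Cish reaches 2.66 in the combination against cmB16F1, and Socs3 lies at -1.24 in dexa+IL4 against cmB16F1 but at 0.90 in the combination against dexa+IL4.

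As a list, 4 of the 8 genes passed the test between dexa+IL4 and cmB16F1, with Cish, Socs1 and Pparg higher and Socs3 lower, against 25% of all clusters (12.8% higher and 12.2% lower). Between the combination and cmB16F1, 4 of 8 passed, with Cish, Socs1 and Irf4 higher and Socs3 lower, against 14.1% of clusters (6.56% and 7.57%). Between the combination and dexa+IL4, 6 of 8 passed, with Cish, Socs1, Socs3, Irf4 and Il4ra higher and Pparg lower, against 17.9% of clusters (8.88% and 9%). The arrays did not overlap for 6, 4 and 7 of the 8 genes in these comparisons, against 44.3%, 28.5% and 36.1% of clusters. The median size of the 8 differences was 0.56, 0.25 and 0.68, beside 0.08, 0.06 and 0.07 over all clusters. Only 60.5% of all clusters had a mean above the highest bacterial control, and differences of dimmer sets may be understated. The sizes are therefore not compared at equal brightness. These comparisons share arrays, so their counts are not independent of each other. The genes were also chosen with earlier results of these data known, so the counts do not test whether the list stands out.

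Arrays of equal replicate number in cmB16F1 and the combination moved together. In both groups Pparg was lowest on the array numbered 1 and highest on that numbered 3, and the combination differed from cmB16F1 by -0.02, 0.08 and 0.08 within a number. Those of Stat6 were -0.06, -0.09 and -0.03. Differences were less even for Il4ra (0.12, 0.0033 and 0.29) and Egr2 (0.34, 0.18 and -0.09). With a block for the number, the interval for the difference of Pparg narrowed to -0.19 to 0.28 and that of Stat6 to -0.26 to 0.14, and neither passed (limma adjusted p = 0.8285 and 0.7091). Il4ra and Egr2 did not pass with the block either (limma adjusted p = 0.3758 and 0.417). Cish differed by 2.74, 2.65 and 2.60 within a number, Socs1 by 1.75, 1.27 and 1.21, Irf4 by 1.06, 0.73 and 0.79, and Socs3 by -0.40, -0.42 and -0.21. The same 4 genes passed with and without the block in this comparison.

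**Figure D4:**
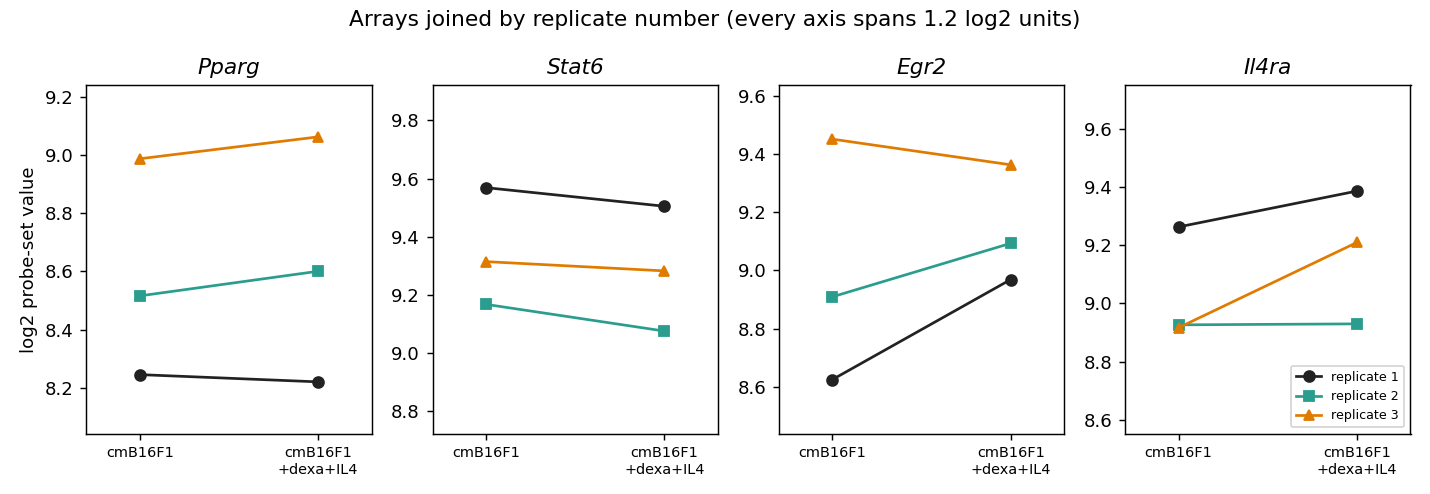
Log2 probe-set values (vertical axis, each spanning the same width) of the 4 genes that did not pass between cmB16F1 and the combination, with lines joining arrays of equal replicate number. For Pparg the 3 lines lie apart, from 8.22 to 9.06, and run nearly level, with differences of -0.02, 0.08 and 0.08.

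Of the 11317 other clusters whose highest group mean lay above the bacterial controls, the profile of Il4ra over the 9 arrays was most like that of Mm.319499 (Pearson r = 0.978) and Mm.133086 (0.975), and most opposed to that of Mm.154614 (-0.971) and Mm.29935 (-0.969). These clusters have no names here. The arrays of a group share their treatment, so r describes these arrays and carries no test. The first pair was lowest in dexa+IL4, at 7.82 and 6.92, and the opposed pair highest there, at 7.65 and 7.90.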

How the data were processed

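Gene expression was measured on 9 Affymetrix arrays, 3 a group, with biotinylated cRNA per the labels' protocols. The authors deposited 1 value per probe set, read here as log2 from the range (5.86 to 14.2), with near-equal array medians and with summary method, normalization and chip type not given in the sources used here. Of 17931 probe sets, 17867 carried a UniGene number. For 57 clusters with 2 sets the set with the higher mean was kept, which left 17810 clusters, tested with 19 mouse control sets.

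Groups came from the sample titles. Differences were fitted with limma 3.58.1 in R 4.3.3 (lmFit, eBayes with a mean-variance trend, group as the only term, 6 residual and 3.85 prior degrees of freedom), tested on simulated data beforehand. No filter on dim sets was used. The genes and the tests were chosen with earlier results of these data known. All 9 chosen numbers were to be named, with the 2 clusters most and the 2 least like Il4ra. Lists of other pathway genes and of cell type markers were set by symbol and not analysed here.

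Deviations from group means were correlated over clusters for arrays of equal number. They were 0.617, 0.565 and 0.662 between the combination and cmB16F1, all over 0.1, so numbers were taken to pair these groups, from the data and not from the labels. 18 alternatives were run: 3 other scalings, 2 variance models, 2 choices of probe sets, the compared groups alone, the replicate block, and leaving out each of the 9 arrays. The number of arrays limits the precision.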

Additional observations from a re-analysis of the deposited data

How the results depend on the processing

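Over 18 alternatives the 8 genes gave 432 differences, of which 400 kept their direction and side of the threshold, 9 lost a call, 11 gained one and 12 turned sign. In several alternatives the difference of a gene could not change, only its side of the threshold. These were the fit without the mean-variance trend, the choices of probe sets, the compared groups alone and the replicate block. Leaving out an array of the group not compared was another. The count of kept directions includes them. The calls and directions of Cish, Socs1, Socs3 and Irf4 held in every alternative where they had passed. Of the 8 genes, 4 passed under every alternative between the combination and cmB16F1, 4 to 5 between dexa+IL4 and cmB16F1, and 4 to 7 between the combination and dexa+IL4. The 9 lost calls were 8 of Il4ra and 1 of Pparg, and the 11 gained were of Stat6, all given above. Hybridization control scaling gave a median change over clusters of -0.20 for the combination against cmB16F1 and of -0.26 against dexa+IL4. It called 1893 clusters between dexa+IL4 and cmB16F1 (4454 before) and 7104 between the combination and dexa+IL4 (3184 before), of which 5.34% were higher (49.7% before). The share higher in the combination against cmB16F1 was 11.7% with it (46.4% before). With median centring the share higher in the combination against dexa+IL4 was 38.1%. With the former scaling the difference of the combination from cmB16F1 became -0.072 for Il4ra, -0.17 for Pparg and -0.065 for Egr2, and that from dexa+IL4 became -0.14 for Egr2. Leaving out 1 array gave 2044 (without dexa+IL4 replicate 1) to 3356 clusters between the combination and dexa+IL4, and 2096 without dexa+IL4 replicate 3. Between the combination and cmB16F1 it gave -0.17 to 0.047 for Stat6, -0.17 to 0.25 for Pparg and -0.039 to 0.38 for Egr2. Between dexa+IL4 and cmB16F1 it gave -0.15 to 0.26 for Egr2. None of the differences that turned sign had passed the test, and the cause was not tested.

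With the replicate block, 3052 clusters passed between the combination and cmB16F1 (2516 without it), and the block changed no call of the 8 genes there. For the other comparisons the numbers were not taken as pairs. The correlations of equal numbers were 0.236, -0.0234 and 0.167 between dexa+IL4 and cmB16F1 and 0.224, -0.0672 and 0.116 between the combination and dexa+IL4, where not every array correlated best with its own number. There the block gave 5172 and 4149 clusters (4454 and 3184 without it), and Stat6 passed in both (limma adjusted p = 0.02781 and 0.01553).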
